A study of Homo sapiens with 12 samples.

Results

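AKR1C1, AKR1C2 and AKR1C3 are 3 closely related aldo-keto reductase genes that lie side by side on human chromosome 10. They were taken by symbol from the deposited tables of a study on ferroptosis in DU145, a prostate cancer cell line, and are described as they stood in each library. The first table compared DU145 cells given RSL3 for 24 h with cells given the solvent DMSO, both of the genotype labelled WT. The second compared DU145 cells overexpressing the transcription factor ATOH8, labelled oeATOH8, with control cells labelled oeCTRL. Each group held 3 libraries, so that 12 libraries formed 4 groups. The first table lists 1810 genes and holds AKR1C1 and AKR1C2, and the second lists 1424 and holds all 3, out of 2983 genes in both tables together. Both tables hold only genes that the authors called changed. AKR1C3 was not in the RSL3 table and could not be assessed there. The construct used for overexpression, and whether its cells were 1 clone or a pool, are not given in the sources used here. All 4 groups come from this 1 cell line. The members were chosen by their fold changes and levels in both comparisons, so those values are given as a description, with no test.

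The AKR1C enzymes use NADPH to reduce carbonyl groups. AKR1C1 is best known for inactivating progesterone, AKR1C2 for inactivating dihydrotestosterone, and AKR1C3 for making testosterone from androstenedione and for making prostaglandins of the F type. They also reduce reactive aldehydes formed when membrane lipids are oxidised, and their genes are known targets of NRF2, a transcription factor that turns on antioxidant genes. RSL3 blocks GPX4, the enzyme that reduces lipid peroxides in membranes, and cells that cannot clear such peroxides die by ferroptosis. ATOH8 is a basic helix-loop-helix transcription factor, a class that binds the DNA letters CANNTG.

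In the RSL3 table AKR1C1 spans chromosome 10 from 4963415 to 4983283 on the plus strand and AKR1C2 from 4987775 to 5018000 on the minus strand, on GRCh38. In the ATOH8 table the genes carry Ensembl identifiers. GENCODE release 29 places AKR1C1 (ENSG00000187134) at 4963253 to 4983283, AKR1C2 (ENSG00000151632) at 4987400 to 5018031 and AKR1C3 (ENSG00000196139) at 5035354 to 5107686 on the plus strand. A main transcript of each has 9 coding exons and 969 coding bases before the stop codon. Over those bases AKR1C1 and AKR1C2 were 98.0% identical, with 19 differences. AKR1C1 and AKR1C3 were 91.4% identical with 83 differences, and AKR1C2 and AKR1C3 91.0% identical with 87. The 60 bases from coding position 103 to 162 are shown because AKR1C1 and AKR1C2 are less alike there than in any other window drawn in the plot of coding identity, and capitals mark the 15 positions that differ among the 3.
AKR1C1: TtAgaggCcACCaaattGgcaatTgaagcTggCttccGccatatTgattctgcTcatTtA
AKR1C2: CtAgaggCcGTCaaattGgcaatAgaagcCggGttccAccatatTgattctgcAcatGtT
AKR1C3: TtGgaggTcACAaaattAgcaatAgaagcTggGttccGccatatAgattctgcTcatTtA
In this stretch AKR1C1 differs from AKR1C2 at 10 positions and from AKR1C3 at 7, and AKR1C2 from AKR1C3 at 13. Elsewhere AKR1C1 and AKR1C2 share runs of identical bases, the longest of them 186 bases at coding positions 784 to 969. Of all 50-base windows of the coding sequence, 53.7% of those in AKR1C1, 57.1% of those in AKR1C2 and 23.0% of those in AKR1C3 occurred unchanged in another member or in AKR1C4, the fourth gene of the family. Of 150-base windows these shares were 4.63%, 7.32% and 2.68%. A short read from such a window fits more than 1 gene. The split of reads between the members therefore depends on how the authors' programs placed such reads, while the sum over the members depends on it less. Sharing outside the coding sequence was not computed. The whole transcripts used are 6705, 3756 and 1807 bases long for AKR1C1, AKR1C2 and AKR1C3.

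**Figure D1:**
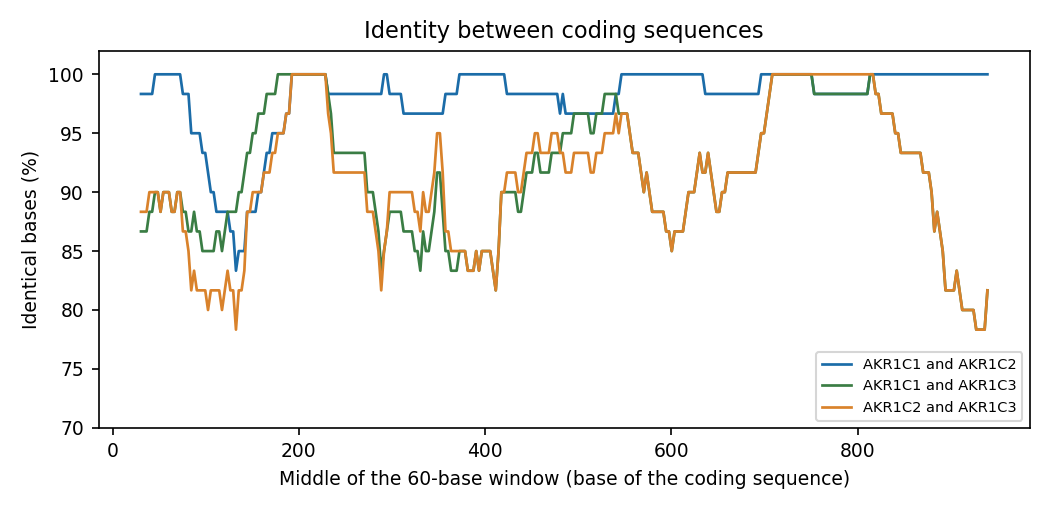
Percentage of identical bases (vertical axis, starting at 70) in 60-base windows along the coding sequences (horizontal axis, base position of the middle of the window) for each pair of members. AKR1C1 and AKR1C2 are identical over the last 186 bases, and both differ from AKR1C3 towards the end of them.

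The promoters are shown because the members lay on the same side within each table. They run from 250 bases before to 50 bases after the gene start in the RefSeq annotation of GRCh38.p14, and are AKR1C1 at chr10:4963165-4963464 on the plus strand, AKR1C2 at chr10:5003808-5004107 on the minus strand and AKR1C3 at chr10:5048531-5048830 on the plus strand. For AKR1C2 and AKR1C3 the start used lies inside the gene's full span. Capitals mark matches to CANNTG, to CCAAT (written ATTGG on the other strand) and to TATAAA (written TTTATA on the other strand).
AKR1C1: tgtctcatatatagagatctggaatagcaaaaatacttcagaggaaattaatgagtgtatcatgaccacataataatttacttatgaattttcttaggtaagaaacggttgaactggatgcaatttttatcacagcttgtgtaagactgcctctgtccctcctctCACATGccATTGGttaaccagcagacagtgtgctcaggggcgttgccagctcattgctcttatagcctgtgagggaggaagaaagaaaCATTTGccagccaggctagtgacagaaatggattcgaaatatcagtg
AKR1C2: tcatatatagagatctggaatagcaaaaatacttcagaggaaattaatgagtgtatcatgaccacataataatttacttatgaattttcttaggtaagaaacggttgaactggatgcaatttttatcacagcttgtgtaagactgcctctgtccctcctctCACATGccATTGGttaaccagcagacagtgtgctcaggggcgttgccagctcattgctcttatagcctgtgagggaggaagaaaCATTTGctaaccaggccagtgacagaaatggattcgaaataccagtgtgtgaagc
AKR1C3: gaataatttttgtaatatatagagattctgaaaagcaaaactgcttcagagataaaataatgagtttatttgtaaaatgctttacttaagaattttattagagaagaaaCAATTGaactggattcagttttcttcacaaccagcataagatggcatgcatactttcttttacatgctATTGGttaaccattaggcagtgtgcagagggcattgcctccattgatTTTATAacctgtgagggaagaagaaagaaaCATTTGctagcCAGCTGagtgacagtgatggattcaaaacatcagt
Counted from the gene start, each promoter holds 1 ATTGG, at position -77 in AKR1C1, -81 in AKR1C2 and -73 in AKR1C3. CANNTG matched at -85 and 4 in AKR1C1, at -89 and -5 in AKR1C2, and at -141, 5 and 16 in AKR1C3, the last being CAGCTG. A match to TATAAA was found in AKR1C3, at -26 on the other strand. Among 27303 promoters of this length, on either strand, CANNTG was present in 68.9%, CCAAT in 35.7%, CAGCTG in 17.7% and TATAAA in 12.0%. TGACNNNGC, the core of the antioxidant response element that NRF2 binds, is in 13.6% of promoters and is not among the letters of these 3 windows. Aligned to each other, the AKR1C1 and AKR1C2 promoters were 93.5% identical, AKR1C1 and AKR1C3 73.5%, and AKR1C2 and AKR1C3 69.4%.

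Over the listed genes, reads per library ranged from 2523743 to 3096832 in the RSL3 table and from 1508188 to 2226518 in the ATOH8 table, which are not library depths. The ATOH8 gene had 76508, 72569 and 76043 reads in the oeATOH8 libraries against 13, 10 and 4 in the oeCTRL libraries. Replicates 2 and 3 were nearly as alike as repeats of 1 sample in both arms of the RSL3 comparison. The chi-square of the difference in their reads, divided by its degrees of freedom, was 1.80 in RSL3 and 1.64 in DMSO, where counting error alone gives about 1. Pairs that included replicate 1 gave 59.1 to 101. The RSL3 and DMSO groups may therefore hold fewer than 3 independent samples. Of 14 prostate and epithelial markers, CDH1 and EPCAM were in the RSL3 table, both lower with RSL3, and CDH1 and KRT8 in the ATOH8 table, both lower in oeATOH8. The other markers of that list, the prostate gene KLK3 among them, were in neither table.

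RSL3-treated cells held more AKR1C1 and AKR1C2 RNA than DMSO-treated cells. AKR1C1 had 492, 409 and 393 normalised counts in the RSL3 libraries, from 340, 436 and 419 reads, against 46.2, 71.0 and 74.2 in the DMSO libraries, from 42, 93 and 85 reads. All RSL3 libraries lay far above all DMSO libraries, and the highest RSL3 library and the lowest DMSO library were both replicate 1. The mean was 432 ± 53.2 in RSL3 and 63.8 ± 15.3 in DMSO (SD, n = 3 each), a 6.76-fold difference or 2.76 on the log2 scale. AKR1C1 held rank 16 by fold among the 958 genes listed as higher with RSL3, and rank 4 among the 821 of these with a mean of at least 50 over the 6 libraries.

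AKR1C2 was the less abundant member. AKR1C2 had 106, 94.7 and 86.3 normalised counts in the RSL3 libraries against 23.1, 21.4 and 27.1 in the DMSO libraries. The groups did not overlap, and the DMSO values rest on 21, 28 and 31 reads. The exact 95% counting interval of DMSO replicate 1 ran from 13.0 to 32.1 reads. The mean was 95.6 ± 9.71 in RSL3 and 23.8 ± 2.91 in DMSO (SD, n = 3 each), a 4.01-fold difference or 2.00 on the log2 scale, at rank 63 of 958. Groups that do not overlap and are higher with RSL3 were found for 48.5% of all 1810 listed genes (37.8% were separated and lower), so the 2 members share that feature with much of the table. The median of all listed genes was 0.50 on the log2 scale.

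The size of the difference depended on the replicate for AKR1C1 more than for AKR1C2. Between libraries of equal number AKR1C1 was 10.7-fold, 5.76-fold and 5.30-fold higher with RSL3, and AKR1C2 was 4.58-fold, 4.43-fold and 3.19-fold higher. Replicates 2 and 3 alone gave 5.53-fold for AKR1C1 and 3.74-fold for AKR1C2. The sum of both genes averaged 527 ± 62.6 normalised counts in RSL3 and 87.6 ± 16.5 in DMSO (SD, n = 3 each), a 6.02-fold difference. The sum depends less than either gene alone on how shared reads were placed. ATOH8 itself had 358, 429 and 470 normalised counts in RSL3 against 26.4, 35.1 and 40.1 in DMSO.

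Cells overexpressing ATOH8 held less RNA of all 3 members than control cells. AKR1C1 had 89.5, 50.3 and 77.6 scaled counts in the oeATOH8 libraries, from 92, 49 and 80 reads, against 191, 259 and 199.6 in the oeCTRL libraries, from 197, 250 and 194 reads. No oeATOH8 library reached the lowest oeCTRL library. The mean was 72.5 ± 20.1 in oeATOH8 and 217 ± 37.0 in oeCTRL (SD, n = 3 each), 2.99-fold lower in oeATOH8, or -1.58 on the log2 scale.

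AKR1C2 had 45.7, 11.3 and 15.5 scaled counts in the oeATOH8 libraries, from 47, 11 and 16 reads, against 61.1, 87.0 and 60.7 in the oeCTRL libraries, from 63, 84 and 59 reads. Replicate 1 of oeATOH8 stood well above the other libraries of its group and not far below the oeCTRL libraries. The mean was 24.2 ± 18.8 in oeATOH8 and 69.6 ± 15.1 in oeCTRL (SD, n = 3 each), 2.88-fold lower in oeATOH8, or -1.53 on the log2 scale. Without oeATOH8 replicate 1 the difference was 5.19-fold, or -2.38 on the log2 scale.

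AKR1C3 was the most even of the 3. AKR1C3 had 107, 109 and 137 scaled counts in the oeATOH8 libraries, from 110, 106 and 141 reads, against 307, 285 and 267 in the oeCTRL libraries, from 316, 275 and 260 reads. The groups lay far apart relative to their spread, with a mean of 118 ± 16.7 in oeATOH8 and 286 ± 19.6 in oeCTRL (SD, n = 3 each). AKR1C3 was 2.43-fold lower in oeATOH8, or -1.28 on the log2 scale. All 3 members had groups that do not overlap, as did 58.3% of all 1424 listed genes in this direction and 41.4% in the other. By fold the members stood inside the bulk of the 835 genes listed as lower, at rank 323 for AKR1C1, 343 for AKR1C2 and 520 for AKR1C3. The median log2 ratio of all listed genes was -1.10. The sum of the 3 members was 214 ± 38.4 scaled counts in oeATOH8 and 572 ± 52.8 in oeCTRL (SD, n = 3 each), 2.67-fold lower in oeATOH8. In RNA from bulk cultures, fewer cells that express a gene and less RNA per cell cannot be told apart, here and with RSL3.

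**Figure D2:**
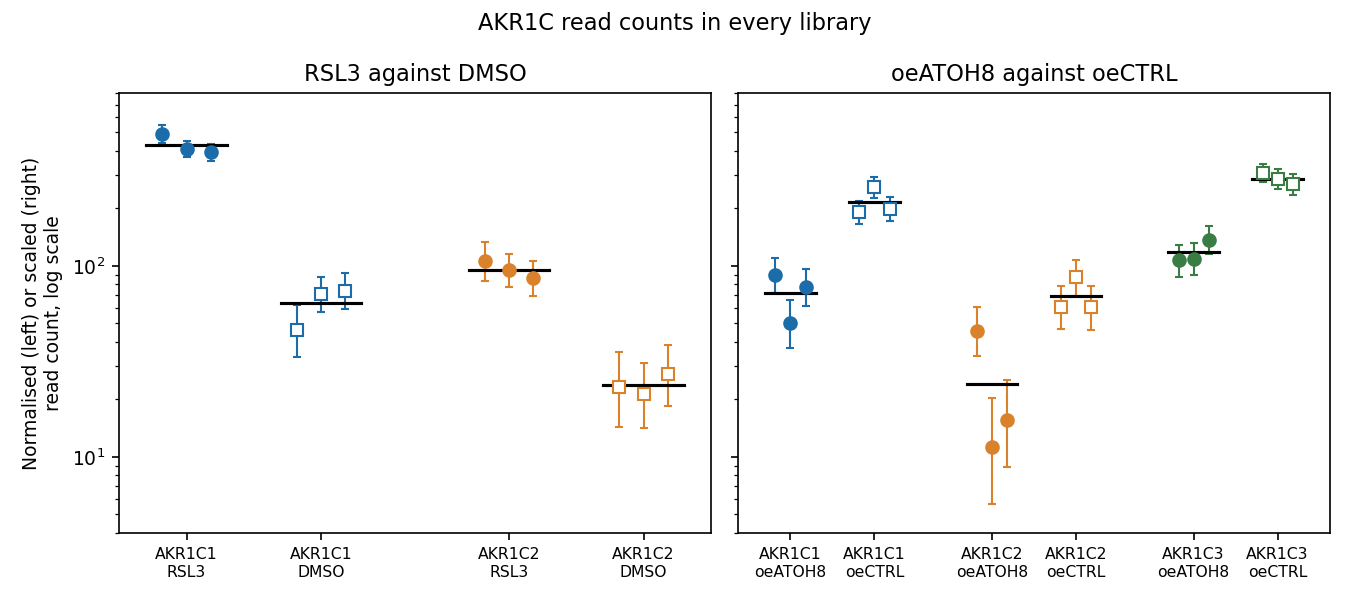
Normalised read counts in the RSL3 table (left) and scaled read counts in the ATOH8 table (right) for every library, on a logarithmic axis, with filled circles for RSL3 or oeATOH8, open squares for DMSO or oeCTRL, whiskers for the 95% counting interval and a bar for the group mean. AKR1C1 and AKR1C2 lie above DMSO in every RSL3 library, and the 3 members lie below oeCTRL in every oeATOH8 library, AKR1C2 by the least in replicate 1.

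The oeATOH8 libraries also differed in the markers of other cell types. Of 15 such markers, HBA1, HBA2, HBB and COL1A2 were in the ATOH8 table, all higher in oeATOH8. Their summed level was 3299 to 55220 scaled counts over the oeATOH8 libraries and 7.25 to 12.6 over the oeCTRL libraries. The globin gene HBB had 23537, 1449 and 5429 scaled counts in oeATOH8 and was listed at 0 in every oeCTRL library. The library with the most globin RNA, oeATOH8 replicate 1, was also the highest of its group for AKR1C1 and AKR1C2, and the lowest for AKR1C3. For AKR1C3 that was 107 against 109 scaled counts in replicate 2, and for AKR1C1 89.5 against 77.6 in replicate 3. Both pairs have 95% counting intervals that overlap. Only for AKR1C2 did the interval of replicate 1, 33.6 to 60.8, lie clear of both other libraries. Over all listed genes replicate 1 was the highest oeATOH8 library for 34.3%. The part of this library difference in the AKR1C values was not tested. The RSL3 table held 1 of the 15 markers, CD68, with 1498 to 4290.3 normalised counts over RSL3 and 787 to 1607 over DMSO libraries.

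The split of reads between AKR1C1 and AKR1C2 was followed as the share of AKR1C2 in the reads of the pair. With RSL3 that share was 17.7%, 18.8% and 18.004%, against 33.3%, 23.1% and 26.7% with DMSO. Every RSL3 library had a lower share than every DMSO library. The mean was 18.2% ± 0.583 in RSL3 and 27.7% ± 5.17 in DMSO (SD, n = 3 each), which restates the larger fold of AKR1C1. The Wilson 95% intervals of the RSL3 libraries lay between 14.3% and 22.3%, and still met those of DMSO replicates 2 and 3, at 16.5% to 31.4% and 19.5% to 35.4%. In oeATOH8 the share was 33.8%, 18.3% and 16.7%, against 24.2%, 25.1% and 23.3% in oeCTRL. Replicate 1 of oeATOH8 lay above all oeCTRL libraries and the other oeATOH8 libraries below them. The mean share was 22.9% ± 9.46 in oeATOH8 and 24.2% ± 0.915 in oeCTRL (SD, n = 3 each), a difference smaller than the spread of the oeATOH8 libraries. AKR1C3 made up 44.2%, 63.9% and 59.5% of the reads of all 3 members in oeATOH8, against 54.9%, 45.2% and 50.7% in oeCTRL, and these values overlapped.

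**Figure D3:**
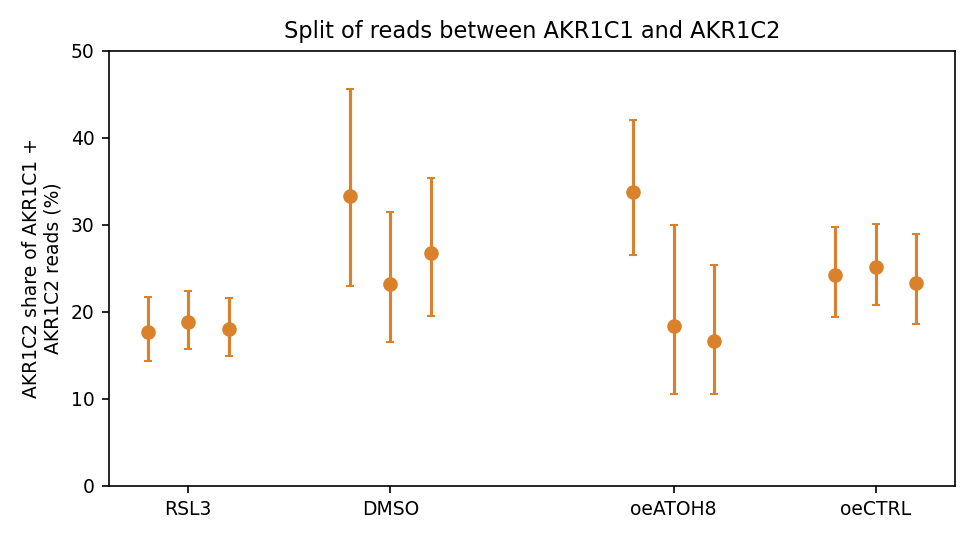
Share of AKR1C2 in the reads of AKR1C1 and AKR1C2 together (vertical axis, percent) in every library of the 4 groups, with Wilson 95% intervals that cover counting error only. The RSL3 libraries sit at 17.7% to 18.8%, below the DMSO libraries, while the oeATOH8 libraries fall on both sides of the oeCTRL libraries.

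Levels of different members can be compared only per length of transcript. Per kilobase of annotated exon, AKR1C3 was the most abundant member in the ATOH8 table, with a mean of 25.9 ± 3.69 scaled counts in oeATOH8 and 63.2 ± 4.32 in oeCTRL (SD, n = 3 each). AKR1C1 followed with 8.27 ± 2.29 in oeATOH8 and 24.7 ± 4.22 in oeCTRL, and AKR1C2 with 3.74 ± 2.91 in oeATOH8 and 10.8 ± 2.33 in oeCTRL. The order was the same in both groups. Neighbours in that order were separated by more than the SD of either, but in oeATOH8 the libraries of AKR1C1 and AKR1C2 overlapped. In the RSL3 table AKR1C1 had 49.2 ± 6.07 normalised counts per kilobase in RSL3 and 7.28 ± 1.75 in DMSO. AKR1C2 had 14.8 ± 1.502 in RSL3 and 3.69 ± 0.451 in DMSO. The annotated exon lengths of 8765, 6461 and 4532 bases for AKR1C1, AKR1C2 and AKR1C3 include alternative transcripts. A larger share of the 50-base coding windows of AKR1C1 and AKR1C2 than of AKR1C3 occurred in relatives. The order of the members may therefore depend on how reads from such windows were placed. Taken per kilobase of coding sequence, which is equally long in all 3, AKR1C3 had 121 in oeATOH8 and 295 in oeCTRL, AKR1C1 74.8 in oeATOH8 and 223 in oeCTRL, and AKR1C2 24.96 in oeATOH8 and 71.8 in oeCTRL. The order of the members was the same on both scales. Because the coding length is equal, the second scale restates the counts without a correction for length and is no separate check. The 2 tables were scaled separately, so their levels are not compared.

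AKR1C1 and AKR1C2 were higher with RSL3 and lower with ATOH8 overexpression. The tables share 251 genes and no libraries. Of these genes, 33, or 13.1%, were higher with RSL3 and lower in oeATOH8, and 17, or 6.77%, were the other way round. The same direction in both was the rule for the rest, with 79 genes (31.5%) higher in both and 122 (48.6%) lower in both. HMOX1, the enzyme that breaks down haem and frees its iron, and PRDX1, a peroxide-reducing enzyme, stood beside the members among the 33. HMOX1 had log2 ratios of 2.25 for RSL3 over DMSO and -1.21 for oeATOH8 over oeCTRL, and PRDX1 0.48 and -1.17 in the same order. No difference between the comparisons was tested.

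**Figure D4:**
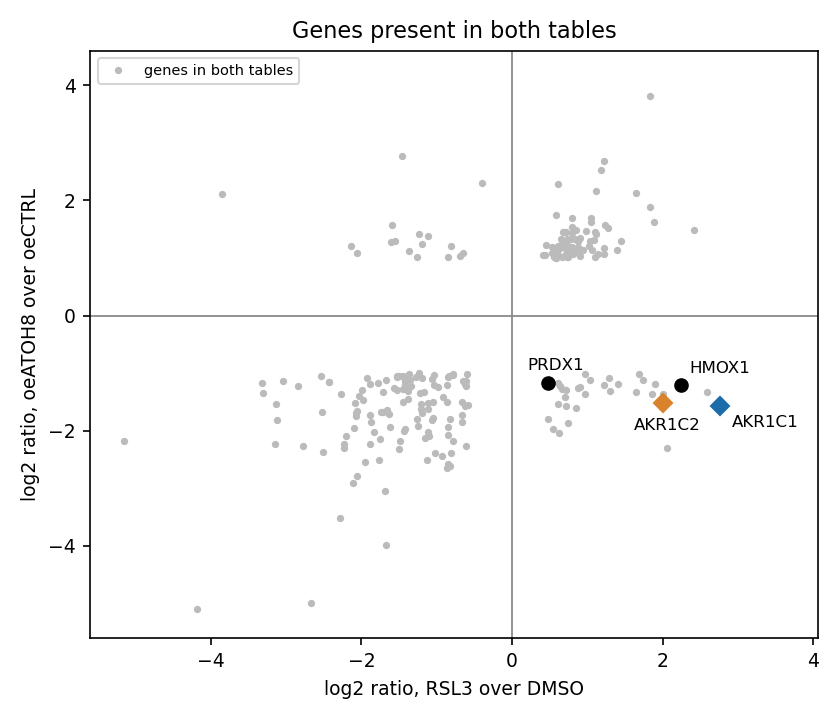
Log2 ratio of RSL3 over DMSO (horizontal axis) against log2 ratio of oeATOH8 over oeCTRL (vertical axis) for the genes present in both tables, each a grey point, with diamonds for members and black points for HMOX1 and PRDX1; ATOH8 lies above the range drawn. AKR1C1 (2.76, -1.58) and AKR1C2 (2.00, -1.53) lie in the lower right field with 13.1% of the shared genes.

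Other genes of the pathways in which the members act were tested in the fit over each whole table. Because the tables hold only genes the authors called, most listed genes passed, 81.7% of 1720 in the RSL3 table with limma (43.4% higher and 38.4% lower) and 100% of 1424 in the ATOH8 table with edgeR (41.4% higher and 58.6% lower). The tests therefore check direction and spread among genes already selected, and a passing gene on a list is no sign that the list stands out. The labels do not say whether replicates were separate cultures, so p-values measure only the spread between these libraries. When all annotated genes entered the adjustment, 0.116% of the RSL3 table passed, none of them on these lists, and 82% of the ATOH8 table passed.

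Of 14 other aldo-keto reductases, 2 were in the RSL3 table and both rose. AKR1B10, a relative that reduces retinal and lipid aldehydes, had 52.1, 53.5 and 31.0 normalised counts in RSL3 against 19.8, 9.16 and 5.24 in DMSO. The DMSO values rest on only 18, 12 and 6 reads. AKR1B10 was 3.995-fold higher with RSL3 (limma adjusted p = 0.0250). KCNAB2, a potassium channel subunit with an aldo-keto reductase fold, rose 1.82-fold (limma adjusted p = 0.0357). None of the 14 was in the ATOH8 table, which held the 3 members.

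Of 31 other NRF2 target genes, 14 were in the RSL3 table, all of them higher with RSL3, and 13 passed. AKR1B10, given above, is among the 14, as are both TRIM16L and TRIM16, so the lists are not separate. The median log2 ratio of the 14 was 1.24. The median of 0.50 over all listed genes is not a like reference, since it covers 958 higher and 852 lower genes. OSGIN1, which responds to oxidative stress, had 3901, 1953 and 1949 normalised counts in RSL3 against 1109, 719 and 650.2 in DMSO. OSGIN1 rose 3.15-fold (limma adjusted p = 0.0176) and HMOX1 rose 4.76-fold (limma adjusted p = 0.0266). EPHX1, an epoxide hydrolase, rose 2.72-fold (limma adjusted p = 0.0282), and TRIM16L, whose reads can be shared with its near copy TRIM16, 2.37-fold (limma adjusted p = 0.0223). The ferritin light chain FTL was 2.00-fold higher and missed the threshold (limma adjusted p = 0.0655, or 0.00223 with replicate numbers as a block). With that block 1708 of all 1720 tested genes passed, so passing there does not set FTL apart. The 13 calls became 0 without DMSO replicate 2 or without DMSO replicate 3, 5 without RSL3 replicate 2, 7 without RSL3 replicate 3 and 9 with TMM scaling over the listed genes.

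Within groups, the order of the libraries for AKR1C1 and AKR1C2 was set beside that of the NRF2 list, by rank and not by size. Of the 14 genes, 12 were highest in replicate 1 among the RSL3 libraries, as were AKR1C1 and AKR1C2. Among the DMSO libraries 13 of the 14 were highest in replicate 1, where AKR1C1 was lowest and AKR1C2 lay between the others. Over all listed genes replicate 1 was highest for 54.4% in RSL3 and 55.1% in DMSO. For AKR1C2 the 95% counting interval of replicate 1 overlapped those of both other libraries in each group. For AKR1C1 the interval of RSL3 replicate 1, 441 to 548 normalised counts, met that of replicate 2, 371 to 449. In DMSO the AKR1C1 interval of replicate 1, 33.3 to 62.4, met those of replicates 2 and 3. The orders of the members therefore lie partly within counting error.

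The ATOH8 table held 3 of the 31 NRF2 targets, and all fell in oeATOH8. ABCC2, an export pump for conjugated compounds, had 210.2, 263 and 281 scaled counts in oeATOH8 against 739, 700.1 and 857 in oeCTRL. ABCC2 fell 3.04-fold (edgeR adjusted p = 5.59e-07). HMOX1 fell 2.31-fold (edgeR adjusted p = 1.62e-08) and PRDX1 2.25-fold (edgeR adjusted p = 2.17e-09). Of 8 genes that control NRF2 or pair with it, none was in the RSL3 table. MAFF, a small MAF protein of the kind that NRF2 pairs with on DNA, was in the ATOH8 table and rose 2.37-fold in oeATOH8 (edgeR adjusted p = 1.70e-08).

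Genes for clearing aldehydes and ketones were few in the tables. Of 33, the RSL3 table held 4, of which AKR1B10, the carbonyl reductase CBR3 (1.75-fold, limma adjusted p = 0.0272) and the aldehyde dehydrogenase ALDH3B1 (1.64-fold, limma adjusted p = 0.0407) rose. RDH11, a retinal reductase, was 1.99-fold lower with RSL3 (limma adjusted p = 0.0266). None of the 33 was in the ATOH8 table. Of 37 genes of steroid hormone metabolism, SRD5A3, a polyprenol and steroid reductase, rose 1.45-fold with RSL3 (limma adjusted p = 0.0461). HSD17B8, a hydroxysteroid dehydrogenase, was 2.93-fold higher in oeATOH8 (edgeR adjusted p = 0.00304), a call that ended when all annotated genes and loci entered the adjustment. Its oeCTRL values rest on only 12, 11 and 28 reads.

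AKR1C3 also acts in prostaglandin metabolism. The RSL3 table held 4 of 21 genes of that pathway, all lower with RSL3, and 2 passed. PTGES, a prostaglandin E synthase, fell 1.36-fold (limma adjusted p = 0.0403) and the prostaglandin E receptor PTGER2 2.17-fold (limma adjusted p = 0.0390). PTGER2 rests on few reads, 6, 15 and 15 in RSL3 against 22, 41 and 28 in DMSO. The receptor PTGER4 was 2.58-fold lower and missed the threshold (limma adjusted p = 0.0530, or 0.0132 with replicate numbers as a block). Nearly all tested genes passed with that block, 1708 of 1720. PTGIS, the prostacyclin synthase, had too few reads to be tested. The ATOH8 table held 4 of the 21, and all passed, 2 higher and 2 lower. The receptor PTGER1 rose 5.94-fold (edgeR adjusted p = 0.000324) and the thromboxane synthase TBXAS1 2.53-fold (edgeR adjusted p = 0.000147). PTGER2 fell 4.06-fold (edgeR adjusted p = 0.000526) and PLA2G4A, the phospholipase that frees arachidonic acid, 3.90-fold (edgeR adjusted p = 0.000264). Reads were few in oeATOH8, at 34, 29 and 11 for PTGER2 and 26, 13 and 16 for PLA2G4A. PTGER1 had 33, 11 and 9 reads in oeCTRL.

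**Figure D5:**
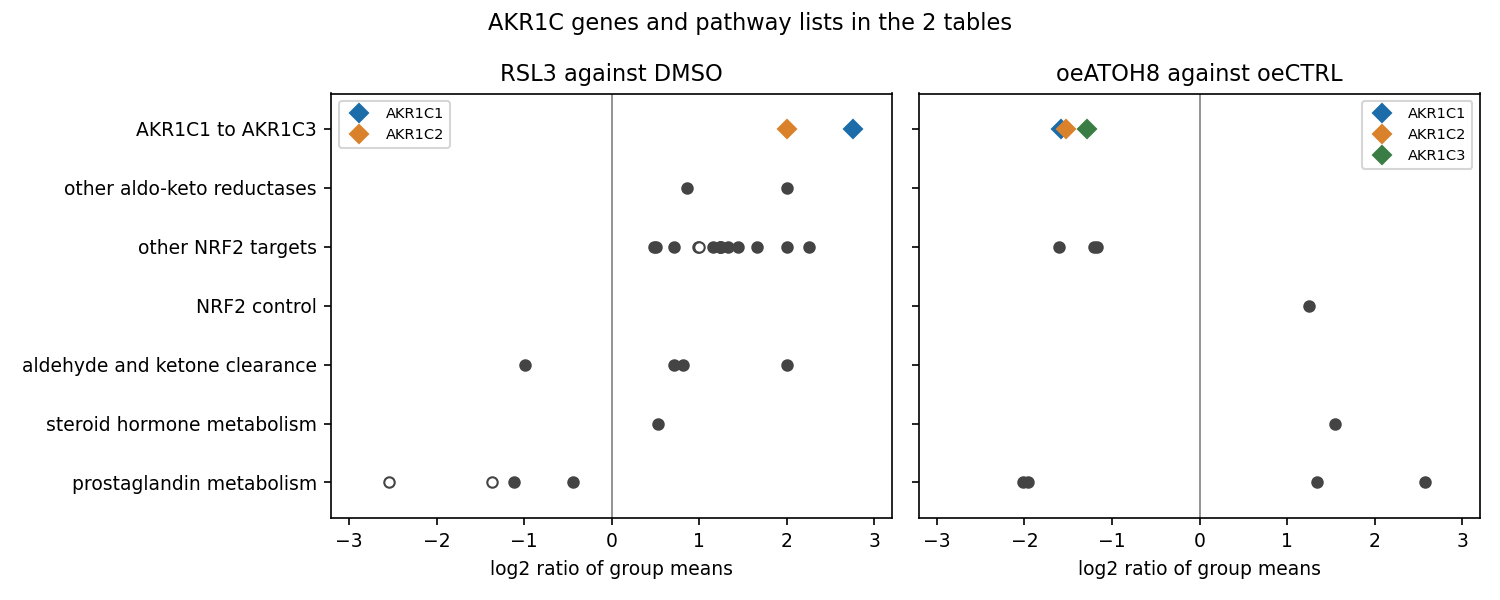
Log2 ratio of group means (horizontal axis) for the members, as diamonds, and for each gene of the pathway lists present in the RSL3 table (left) and the ATOH8 table (right); filled points passed the test and open points did not pass or were not tested. The 14 other NRF2 targets of the left panel lie on the same side as the members there, as do the 3 of the right panel, of which HMOX1 and PRDX1 are in both, while the prostaglandin genes lie on the lower side on the left and on both sides on the right.

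Genes whose profile over the 6 libraries of a table was most like that of a member were ranked by the root mean square difference of log2 values. For AKR1C1 in the RSL3 table the nearest of 1375 genes included the forkhead factor FOXL2 at 0.27, the potassium channel subunit KCNF1 at 0.32, the hair keratin KRT81 at 0.41 and the channel subunit CACNG4 at 0.50. For AKR1C2 they were the RNA-binding protein IGF2BP1 at 0.19, the receptor phosphatase PTPRU at 0.28, KRT81 at 0.31, and RASD2 and IGFBP2 at 0.32 each. AKR1C1 and AKR1C2 lay 0.60 apart, a distance that includes the gap between their log2 ratios of 2.76 and 2.00. The nearest genes are the smallest of 1375 distances, so they are no measure of how alike the 2 members are.

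In the ATOH8 table, among 1052 genes, AKR1C1 was nearest to the matrix protein FREM2 at 0.12, BTN3A3 at 0.15, and SYTL2, the complement protease C1S and SLC44A3 at 0.17 to 0.18. AKR1C2 was nearest to SLC6A16 at 0.27, SPOCK2 at 0.32, the transcription factor MEF2C at 0.35, KCNJ5-AS1 at 0.36 and HPCAL4 at 0.38. The reads of the antisense gene KCNJ5-AS1 cannot be told from those of its partner, since strandedness is not given. AKR1C3 was nearest to the membrane metalloproteinase MMP15 at 0.06, an Ensembl gene with no symbol in the name table (ENSG00000275993) at 0.08, and the calpain CAPN5, the interferon-induced ISG15 and GSDMB at 0.09 to 0.10. Among the members the distances were 0.37 between AKR1C1 and AKR1C3, 0.42 between AKR1C1 and AKR1C2 and 0.73 between AKR1C2 and AKR1C3.

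Within 500 kb of the cluster GENCODE annotates 11 protein-coding genes, the 3 members included. The members were the only ones of the 11 in either table. The others, the relatives AKR1E2, AKR1C8P and AKR1C4 among them, could not be assessed.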

How the data were processed

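RNA of DU145 cells was sequenced in 12 libraries. Per the submitters' processing notes, fastp, HISAT2, StringTie and DESeq2 were used on hg38 (GRCh38); versions, roles and strandedness are not given in the sources used here. In the RSL3 table the authors deposited a normalised signal for each gene, which a position and a strand identify, and 100% of values were whole multiples of 1 step per library (tolerance 0.001), as counts divided by a size factor are, so reads were recovered. Raw counts make up the deposited ATOH8 table, whose columns OE and NC were taken by name as oeATOH8 and oeCTRL. RSL3 genes were named by position (1064 with the same span, 696 by RefSeq overlap of at least 0.5, 19 by GENCODE, 31 unnamed). Of 1152 Ensembl identifiers, 1146 were in the name table; the other 272 rows are loci assembled by the authors.

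The authors' size factors were kept for RSL3, and limma 3.58.1 (trended variance) was run on log2(value + 1), after a filter (minimum count 10, minimum total 15). Because that table is not counts as deposited, edgeR on recovered reads is an alternative and called 1549 of 1720 genes. ATOH8 counts were tested with edgeR 4.0.16 (quasi-likelihood), scaled within a group by median ratios. No gene had a log2 ratio between -0.97 and 1.03, and groups were scaled to centre this gap, which assumes that the authors' fold limits were symmetric. Two-sided p-values were adjusted by Benjamini-Hochberg (threshold 0.05) over listed genes, and, as an upper bound, over 59788 annotated genes for RSL3 and 62700 genes with 12504 assembled loci for ATOH8. R 4.3.3, DESeq2 1.42.0 and Python 3.11.15 were used, and the code was tested on simulated data. Fold changes are ratios of group means. Intervals cover counting error only.

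Deviations from group means correlated at 0.68, 0.61 and 0.61 between equal replicate numbers of the RSL3 table. Unequal numbers were not compared, and replicates 2 and 3 were nearly alike in both arms. The correlations therefore show that replicate 1 stood apart in a like way in both arms. They cannot show whether replicates 2 and 3 pair by number. The members and gene lists were chosen with earlier results of these data known. Named genes are the members, ATOH8, up to 4 passing genes per list and table with a mean of at least 50 and the smallest adjusted p, and the 5 most alike profiles per member. Genes outside this rule were named after their values were seen, where a list had few genes in a table or a count turned on them. Of the most alike profiles of AKR1C1 with RSL3, 1 is not reported here.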

Additional observations from a re-analysis of the deposited data

How the results depend on the processing

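The direction of every AKR1C log2 ratio was kept under all scalings, omissions and fits tried. With TMM or totals over listed genes, the RSL3 values were 2.45 and 2.24 for AKR1C1 (2.76 as reported), 1.71 and 1.52 for AKR1C2 (2.00), and 2.29 and 2.08 for their sum (2.59). The same scalings gave -0.98 and -1.74 for AKR1C3 (-1.28) and -1.12 and -1.87 for the sum of 3 in oeATOH8 (-1.42), and in oeATOH8 they gave -1.28 and -2.04 for AKR1C1 (-1.58) and -1.23 and -1.99 for AKR1C2 (-1.53). Both take the listed genes to balance out. The median of all listed genes was 0.50, 0.21 and 0.03 for RSL3 and -1.10, -0.80 and -1.56 for ATOH8 as reported, with TMM and with totals. Replicate 1 alone gave 3.41, 2.20 and 3.11 for AKR1C1, AKR1C2 and their sum with RSL3, and replicates 2 and 3 alone gave 2.47 for AKR1C1 and 2.34 for the sum.

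Leaving out 1 library at a time gave 2.57 to 2.88 for AKR1C1, 1.93 to 2.10 for AKR1C2 and 2.44 to 2.71 for the sum with RSL3. With ATOH8 the ranges were -1.76 to -1.37 for AKR1C1, -2.38 to -1.18 for AKR1C2, -1.41 to -1.22 for AKR1C3 and -1.52 to -1.28 for the sum. The AKR1C2 share, -1.30 percentage points in oeATOH8 relative to oeCTRL, was 1.01 without oeATOH8 replicate 2, 1.84 without oeATOH8 replicate 3 and -6.73 without oeATOH8 replicate 1.

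Pathway list calls with RSL3 numbered 20, and 0 with every annotated gene counted. They ranged from 0 to 21 with 1 library left out: 0 without DMSO replicate 2 or 3, 5 without RSL3 replicate 2, 8 without RSL3 replicate 3, 17 without RSL3 replicate 1 and 21 without DMSO replicate 1. Leaving replicate 1 out of both groups gave 22, in a fit where 1748 of all 1767 tested genes passed. The cause was not tested. Over all genes, 1406 calls became 6 and 8 without DMSO replicate 2 or 3, 266 and 313 without RSL3 replicate 2 or 3, and 918 with TMM (277 higher and 641 lower, against 746 and 660). Calls over all genes were 990 of 1776 without RSL3 replicate 1 and 1491 of 1771 without DMSO replicate 1. List calls with ATOH8 stayed at 9 with any library left out, where 1417 to 1423 of all 1424 genes passed. With the replicate number as a block, list calls were 22 with RSL3, gaining FTL and PTGER4, and 9 with ATOH8, with no other call changed. In those fits 1708 of all 1720 tested genes passed with RSL3 and 1424 of 1424 with ATOH8. The list calls under the block therefore do as nearly all listed genes do. The ATOH8 samples share only a number, with deviations correlating at 0.041, 0.053 and 0.074. Alternatives chosen after seeing the data were the count of every annotated gene, the term for replicate 1, TMM for list calls with RSL3, and leaving replicate 1 out of both groups.

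AKR1C2 rests on 11 to 31 reads in 5 of the 12 libraries, which limits its precision, and in oeATOH8 its libraries differed by more than counting error (47 reads in replicate 1, with a 95% interval of 34.5 to 62.5, against 11 and 16). Selection by the authors leaves AKR1C3 with RSL3, and the rest of the cluster, not assessed here.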
